A study of Mus musculus with 10 samples.

Results

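Interferon-stimulated genes were followed through 10 RNA-seq libraries of mouse hematopoietic cells cultured with or without Notch ligand. The 39 genes were chosen by name among the 24062 gene rows of the count tables, and all 39 were present and passed the filter on low counts. The cells began as LSK cells, the Lin- SCA1+ KIT+ stem and progenitor fraction of mouse bone marrow. They were grown on immobilized Delta1ext-IgG, the extracellular part of the Notch ligand Delta1 fused to an IgG tail, or on human IgG1 as the no Notch control. All flasks were also coated with Retronectin and held the same medium with SCF, FLT-3 ligand, IL-6 and IL-11. DN1 cells (KIT++ CD44+ CD25-) were sorted from Delta1 cultures without IL-7. DN2a (KIT++ CD44+ CD25+) and DN2b (KIT+ CD44lo CD25+) cells were sorted from Delta1 cultures that had received IL-7, so stage and IL-7 cannot be told apart. The control, called IgG here, was wild type and harvested on day 14, and no sort of it is described. Per the study's methods IL-7 was added at day 14, so DN2a and DN2b cells were in culture longer than IgG. Time in culture and IL-7 cannot be told apart from stage where these cells are compared with IgG. There were 2 libraries for each DN stage, numbered 1 and 2 by the dates in their labels, and 4 for IgG (D1, D2, R1 and R2, letters that the labels do not explain).

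Interferons are secreted proteins that act on neighbouring cells through the receptors IFNAR (type I) and IFNGR (type II). Type I interferons are released by cells that sense viral nucleic acid. Type I signaling sends a complex that holds STAT2 and IRF9 to the interferon-stimulated response element (ISRE), whereas type II signaling acts through the gamma-activated sequence (GAS). The genes switched on in this way sense or destroy viral RNA, block viral entry and translation, or attack the vacuoles of intracellular microbes. Hematopoietic stem and progenitor cells and myeloid cells are known to carry some of these transcripts without infection.

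Between 12354635 and 35367925 reads per library were counted on genes, and 3 counts, taken as the detection floor, equalled 0.0848 to 0.243 CPM (counts per 1000000 gene reads). Expression is given as CPM, IgG libraries in the order D1, D2, R1 and R2 and DN libraries in the order 1 and 2, and groups as mean ± SD (n = 2 for each DN stage, n = 4 for IgG). Early T cell genes marked the DN libraries: the summed CPM of 7 of them (*Tcf7*, *Gata3*, *Bcl11b*, *Il2ra*, *Cd3e*, *Cd3g* and *Rag1*) was 367 to 418 in DN1, 2135 to 2980.0 in DN2a, 3709 to 4808 in DN2b and 1.16 to 3.92 in IgG. *Il2ra*, which encodes the sort marker CD25, had 27.6 and 20.6 CPM in DN1 against 1651 and 1133 in DN2a. Markers of B cells (3 genes) and natural killer cells (3 genes) summed to at most 4.89 CPM in every library.

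The IgG cultures carried neutrophil and macrophage transcripts that the DN libraries largely lacked. All 7 neutrophil genes listed (*Elane*, *Mpo*, *Ngp*, *Camp*, *Ltf*, *S100a8* and *S100a9*) exceeded 1 CPM in every IgG library, where they summed to 21031 to 58147 CPM. Their sum was 2837 CPM in the DN1 library 1 and 68.4 in library 2, 2.84 to 4.89 in DN2a (*Camp* at 0) and 0.911 to 1.21 in DN2b (*Elane*, *Ngp* and *Camp* at 0). The 7 macrophage genes found, *Csf1r* and *Cd68* among them, also all exceeded 1 CPM in each IgG library and summed to 1450.3 to 5784 CPM. They summed to 39.2 to 40.5 CPM in DN1 (*Msr1* and *Mmp12* at 0), 11.1 to 14.01 in DN2a and 14.3 to 50.1 in DN2b (*Msr1* at 0). These lists thus moved with every comparison against IgG, and their part in the results below was not tested. A list of 5 conventional dendritic cell genes overlapped between DN1 (59.8 to 128 CPM) and IgG (65.4 to 1234). Its sum was 37.0 to 43.5 CPM in DN2a and 10.7 to 23.1 in DN2b. In bulk libraries, fewer cells of one type and less RNA per cell cannot be told apart.

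Most interferon-stimulated genes were far lower in the 3 DN stages than in IgG. Of the 39 genes, 31 were lower and 0 higher in DN1, 33 lower and 0 higher in DN2a, and 29 lower and 0 higher in DN2b (edgeR quasi-likelihood test, adjusted p under 0.05 over 12221 genes). Among all genes tested, 17.0% were lower and 14.3% higher in DN1, 24.3% lower and 21.2% higher in DN2a, and 22.5% lower and 19.9% higher in DN2b. DESeq2 called 34, 34 and 33 of the 39 lower (22.1%, 29.2% and 27.2% of all genes) and 0 higher (15.8%, 22.0% and 21.1%). With D1 and D2 as the only IgG libraries, 34, 34 and 33 were lower as well, against 11.9%, 18.5% and 16.3% of all genes. This pair includes D2, the highest IgG library for 33 of the 39 genes, and the number lower with R1 and R2 alone is not reported here. At an unadjusted p under 0.05 edgeR called 0 higher (20.7%, 25.3% and 24.8% of all genes). The median log2 fold change (log2FC) of the 39 genes was -3.18 in DN1, -2.94 in DN2a and -2.58 in DN2b, against 0.01, -0.05 and -0.05 over all genes. These values come from a fit scaled by TMM, and scaling to library size only moved the median of all genes to 0.27 in DN1, 0.01 in DN2a and 0.02 in DN2b and left 31, 33 and 28 of the 39 genes lower, against 13.3%, 22.3% and 20.3% of all genes. The 3 comparisons share the same 4 IgG libraries. Every IgG library lay above every DN library of the stage for 32 genes in DN1, 33 in DN2a and 31 in DN2b, against 19.4%, 29.9% and 28.0% of all genes tested.

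By role, the 3 transcription factors, all 5 oligoadenylate synthetase (OAS) genes, the 3 IFIT genes and both MX genes were lower in every DN stage, but 2 of the IFIT genes and both MX genes passed the filter on low counts only through IgG and so had to differ. Of the 6 interferon-inducible GTPases of the IRG and GBP families, 1 was lower in DN1, 2 in DN2a and 0 in DN2b, against 17.0%, 24.3% and 22.5% of all genes, and their difference from the other 33 genes was not tested. In all, 27 of the 39 genes were lower in all 3 comparisons, 5 in 2 (*Dhx58*, *Iigp1*, *Herc6*, *Cmpk2* and *Bst2*), 2 in 1 (*Ifih1* and *Irgm1*) and 5 in none (*Igtp*, *Ifi47*, *Gbp2*, *Gbp3* and *Ifi35*). The share of all genes lower in all 3 was not counted, and shared IgG libraries make repeated calls likely. In total 5 genes (*Ifit1*, *Ifit3*, *Mx1*, *Mx2* and *Ifi44*), all among the 27, passed that filter through the IgG libraries alone. Without them, 26, 28 and 24 of 34 genes were lower in DN1, DN2a and DN2b, with a median log2FC of -2.63, -2.39 and -2.02, against 14.2%, 20.4% and 19.2% of the 11316 genes that also passed through DN libraries and medians of 0.090, 0.075 and 0.074. Without DN1 library 1, which carried the neutrophil transcripts, 23 of the 39 genes were lower in DN1, against 11.8% of all genes. Without DN1 library 2 the number was 21, against 8.63%. Leaving out library 1 or library 2 gave 17 and 21 lower genes in DN2a (11.2% and 13.8% of all genes), and 14 and 19 in DN2b (11.3% and 15.4%), in fits where the lone library is assumed to vary like the other groups.

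**Figure D1:**
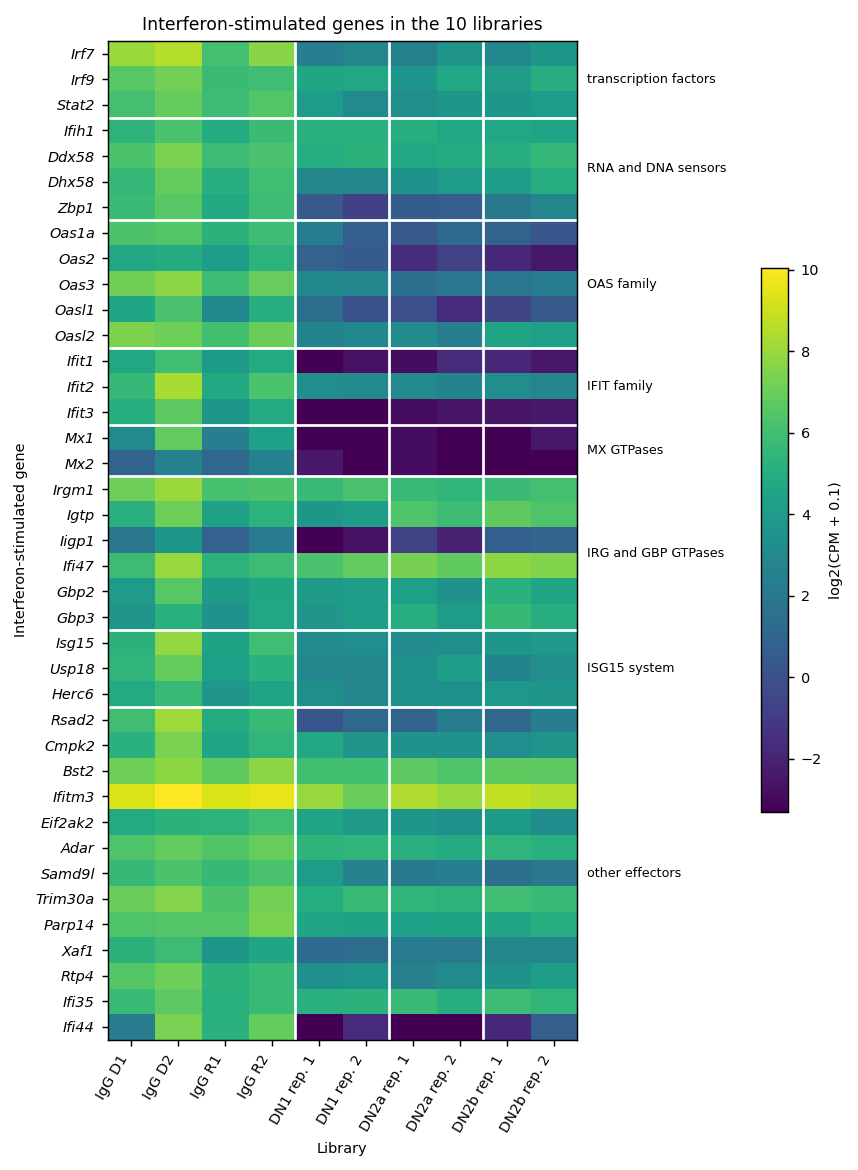
Level of each of the 39 interferon-stimulated genes (rows, grouped by role) in each of the 10 libraries (columns), as log2(CPM + 0.1) on the color scale. The 4 IgG columns are brighter than the 6 DN columns in most rows, with D2 the brightest of the 4 IgG columns in 33 of 39, whereas *Igtp*, *Ifi47*, *Gbp2* and *Gbp3* are about as bright in the DN2b columns as in IgG.

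**Figure D2:**
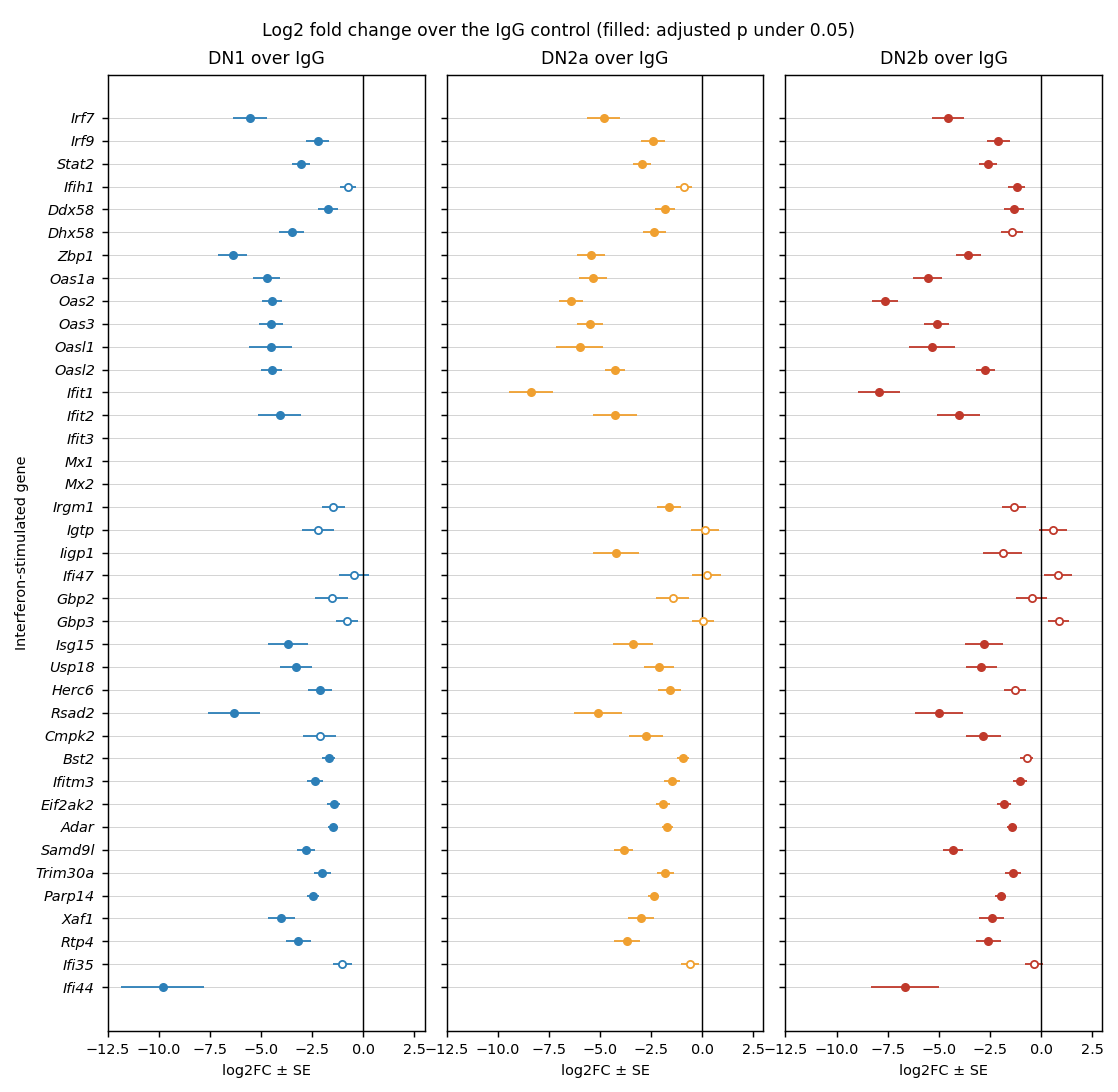
Fitted log2FC (x axis, point) ± SE (bar) of each gene over IgG in DN1, DN2a and DN2b, from the edgeR fit of 10 libraries. Filled points passed an adjusted p of 0.05 (31, 33 and 29 genes, those without a point included), and a gene with 3 counts or fewer over a DN group has no point there, because its fitted value depends on the prior count.

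Levels between genes were compared per kilobase of exon, with exon lengths from GENCODE vM21 (GRCm38), since the annotation behind the counts is not given in the sources used here. On this scale *Ifitm3*, a membrane protein that blocks viral entry, was the most abundant of the 39 in every group (1146 CPM per kb in IgG, 279 in DN1, 443 in DN2a and 599 in DN2b), followed by *Bst2*, which encodes tetherin (188, 70.6, 104 and 121). The third was *Isg15* in IgG (117) but *Ifi47* in the DN stages (37.9 in DN1, 53.5 in DN2a and 80.9 in DN2b). *Igtp* came next in DN2a (34.9) and DN2b (47.6).

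A promoter feature that the choice by name did not use was common among the genes. RefSeq (GRCm38.p6) promoter windows, from 250 bases before to 50 after each gene's start, were matched by symbol for 30 of the 39 genes and searched on both strands. The ISRE core, GAAA and GAAA with any 2 bases (NN) between them, was found in 17 of the 30 genes (56.7%), against 3.99% of 27025 genes with a window. The GAS core TTCNNNGAA (N is any base) was found in 8 of 30 (26.7%), against 9.55% of all genes, and 5 genes held both, overlapping in 2. A match describes the letters of the window and is not evidence of binding. The stretches around the ISRE matches of 8 genes are shown for genes called lower in at least DN1 and DN2a (*Isg15*, *Ifit1*, *Ifit3*, *Oas3* and *Bst2*) and for GTPases that were not called lower (*Igtp*, *Gbp2* and *Gbp3*). They lie at chr4:156200865-156200906 (minus strand), chr19:34640775-34640823 (plus strand), chr19:34583363-34583426 (plus strand), chr5:120777715-120777744 (minus strand), chr8:71537577-71537612 (minus strand), chr11:58199512-58199541 (plus strand), chr3:142620594-142620623 (plus strand) and chr3:142559989-142560024 (plus strand). Each is written 5′ to 3′ on the gene's strand, with ISRE matches in capitals (TTTC, NN, TTTC where the match is on the opposite strand) and 10 flanking bases in lower case.
Isg15: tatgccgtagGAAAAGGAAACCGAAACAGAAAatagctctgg
Ifit1: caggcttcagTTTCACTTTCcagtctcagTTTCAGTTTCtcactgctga
Ifit3: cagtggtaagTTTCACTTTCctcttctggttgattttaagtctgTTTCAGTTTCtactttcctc
Oas3: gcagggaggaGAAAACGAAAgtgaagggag
Bst2: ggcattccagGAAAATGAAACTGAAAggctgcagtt
Igtp: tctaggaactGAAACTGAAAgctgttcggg
Gbp2: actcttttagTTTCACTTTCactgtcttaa
Gbp3: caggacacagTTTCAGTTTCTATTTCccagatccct
In *Isg15* and *Bst2* the capitals join 3 and 2 overlapping matches in tandem on the gene's strand, and in *Gbp3* 2 on the opposite strand. *Ifit1* and *Ifit3* each hold 2 separate matches. The first base of the match lay 34 bases before the RefSeq start in *Igtp* and 59 in *Gbp2*, whose GENCODE start, 142620602, falls inside the printed stretch. *Bst2* and *Igtp*, both printed here, were among the 5 genes that also held a GAS core. The core thus stood in promoters of genes that were lower in the DN stages and of genes that were not called lower.

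The transcription factors that carry the type I response fell in every DN stage. *Irf7*, the factor that amplifies type I interferon production, had 258, 376, 67.1 and 204 CPM in IgG, 5.17 and 6.98 in DN1, then 5.76 and 11.8 in DN2a and 7.55 and 13.6 in DN2b. Every IgG library exceeded all 6 DN libraries, and the IgG mean was 37.3-fold that of DN1. Its log2FC was -5.53 ± 0.84 in DN1, -4.81 ± 0.80 in DN2a and -4.55 ± 0.79 in DN2b (SE, edgeR adjusted p = 0.00190, 0.00175 and 0.00222). *Stat2*, the STAT partner used by type I and type III receptors alone, had 69.7, 118, 57.5 and 87.8 CPM in IgG, 16.7 and 7.90 in DN1, then 9.65 and 13.4 in DN2a and 12.9 and 16.4 in DN2b, and its log2FC was -3.06, -2.94 and -2.60 in DN1, DN2a and DN2b. *Irf9*, the DNA-binding subunit of the complex that holds STAT2, had 93.5, 154, 54.7 and 60.9 CPM in IgG, 22.9 and 25.1 in DN1, then 12.9 and 24.5 in DN2a and 15.8 and 31.4 in DN2b. Its groups did not overlap, and its log2FC was -2.23 ± 0.58, -2.40 ± 0.59 and -2.08 ± 0.57. In all DN libraries the messages of these factors were still well above the detection floor.

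Of the 4 sensors of nucleic acid, 3 were lower in each DN stage, with *Ifih1* missing in DN1 and DN2a and *Dhx58* in DN2b. The shares of all genes lower in DN1, DN2a and DN2b were 17.0%, 24.3% and 22.5%. *Zbp1*, which senses Z-form nucleic acid and starts necroptosis, had 55.04, 93.8, 27.4 and 59.2 CPM in IgG, 1.24 and 0.487 in DN1, then 1.42 and 1.51 in DN2a and 3.97 and 6.88 in DN2b. It was 68.3-fold lower in DN1 and 10.9-fold lower in DN2b by mean CPM (log2FC -6.39 ± 0.71 in DN1, -5.43 ± 0.68 in DN2a and -3.56 ± 0.60 in DN2b, edgeR adjusted p = 5.67e-04, 4.86e-04 and 0.00195). *Dhx58*, which encodes the RIG-I relative LGP2, had 47.4, 117, 34.2 and 60.99 CPM in IgG, 7.16 and 6.98 in DN1, then 11.4 and 16.02 in DN2a and 18.1 and 34.2 in DN2b. It was lower in DN1 and DN2a (log2FC -3.50 ± 0.60 and -2.35 ± 0.56), and its value in DN2b was -1.44 ± 0.53 with an adjusted p of 0.0541. *Ddx58*, encoding the RNA sensor RIG-I, had 75.1, 164, 56.4 and 73.7 CPM in IgG, 31.1 and 37.8 in DN1, then 25.9 and 30.1 in DN2a and 34.1 and 46.9 in DN2b. It was lower in all stages (log2FC -1.73, -1.84 and -1.31), although its adjusted p in DN2b, 0.0498, was close to the threshold. *Ifih1*, encoding the sensor of long double-stranded RNA MDA5, had 40.8, 77.7, 29.8 and 54.4 CPM in IgG, 37.4 and 36.3 in DN1, then 33.3 and 24.8 in DN2a and 25.1 and 22.1 in DN2b. It passed the test in DN2b alone (log2FC -1.20 ± 0.39, adjusted p = 0.0355).

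The OAS enzymes make 2′-5′-linked oligoadenylates that activate RNase L, and their 5 genes lie in clusters on chromosome 5 (*Oas2*, *Oas3* and *Oas1a* between 120730333 and 120907521, *Oasl2* and *Oasl1* between 114896936 and 114937915, GRCm38). All were lower in each DN stage, with IgG and DN libraries never overlapping. *Oas2* had 25.97, 29.4, 17.98 and 39.4 CPM in IgG, 1.72 and 1.35 in DN1, then 0.219 and 0.503 in DN2a and 0.195 and 0.0809 in DN2b. By mean CPM it was 18.3-fold lower in DN1, 78.1-fold in DN2a and 204-fold in DN2b, where 0.0809 CPM is 1 count. The log2FC of *Oas2* was -4.45 ± 0.50 in DN1, -6.41 ± 0.58 in DN2a and -7.63 ± 0.64 in DN2b. *Oas3* had 147, 207, 57.2 and 121 CPM in IgG, 7.42 and 6.87 in DN1, then 2.84 and 3.66 in DN2a and 3.64 and 4.86 in DN2b. *Oas1a*, an OAS gene of the same cluster, had 79.8, 87.4, 37.9 and 58.6 CPM in IgG, 4.73 and 1.51 in DN1, then 1.24 and 2.30 in DN2a and 1.89 and 1.13 in DN2b. For both, the DN libraries stayed below the lowest IgG library (log2FC -4.53, -5.47 and -5.09 for *Oas3*, and -4.72, -5.34 and -5.54 for *Oas1a*). Of the 2 OAS-like genes, *Oasl1*, a repressor of *Irf7* translation in mouse, had 23.7, 72.5, 7.55 and 32.7 CPM in IgG, 2.78 and 0.919 in DN1, then 0.874 and 0.216 in DN2a and 0.585 and 1.30 in DN2b. Its log2FC was -4.53, -5.99 and -5.32, or -3.75, -5.23 and -4.52 without IgG D2. *Oasl2* had 169, 137, 63.3 and 131 CPM in IgG, 6.18 and 7.57 in DN1, then 8.78 and 5.17 in DN2a and 22.5 and 18.2 in DN2b, so that its log2FC was -4.47, -4.26 and -2.72.

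The IFIT proteins bind foreign RNA caps and hinder translation, and 2 of their 3 genes on chromosome 19 were nearly silent in the DN stages. *Ifit1* (chr19:34640871-34650009) had 26.1, 62.1, 15.5 and 29.7 CPM in IgG, and 1, 4 and 4 counts in all over DN1, DN2a and DN2b. Its IgG level was 1311 (95% exact interval 235 to 51795) times that of DN1, an interval that covers counting error only, as do the others below. *Ifit3* (chr19:34583531-34588731) had 33.4, 104, 12.9 and 30.2 CPM in IgG against 0 counts in DN1, where it was at least 619-fold lower than the IgG mean, 350.0-fold lower than the mean without IgG D2 and 178-fold lower than the lowest IgG library (3 counts over the group taken as the limit). Over DN2a and over DN2b it had 2 counts each, and the IgG level was 872 (95% exact interval 241 to 7203) and 585 (95% exact interval 162 to 4828) times these, or 493 and 331 times without IgG D2. *Ifit2* (chr19:34550694-34576419), their neighbour, was found in every DN library. It had 50.004, 329, 27.7 and 75.7 CPM in IgG, 9.72 and 8.22 in DN1, then 7.69 and 6.40 in DN2a and 9.63 and 6.72 in DN2b, with a log2FC of -4.09 ± 1.06 in DN1, -4.24 ± 1.08 in DN2a and -4.03 ± 1.06 in DN2b, or -2.72, -2.86 and -2.64 without IgG D2. Reads that matched several places were not counted, so genes with near-identical copies, *Ifit3* and *Oas1a* among them, are uncertain in level.

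Both MX genes, which encode dynamin-like GTPases that trap viral particles, were at or under the detection limit in the DN stages. *Mx1* had 7.99, 116, 5.06 and 18.9 CPM in IgG and 0 counts in DN1, with 1 count in each of DN2a and DN2b. In DN1 it was at least 506-fold lower than the IgG mean, 146-fold lower than the mean without IgG D2 and 69.4-fold lower than the lowest IgG library. *Mx2* was low in IgG too, with 1.99, 5.77, 2.121 and 5.83 CPM, against 2 counts in DN1, 1 in DN2a and 0 in DN2b, the last at least 36.3-fold lower than the IgG mean, 30.6-fold lower than the mean without IgG D2 and 18.4-fold lower than the lowest IgG library.

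The ISG15 system tags proteins with the ubiquitin-like protein ISG15. *Isg15* itself had 38.3, 232, 21.2 and 61.6 CPM in IgG, 8.04 and 9.36 in DN1, then 8.71 and 10.1 in DN2a and 13.5 and 14.6 in DN2b. Its lowest IgG library, R1, lay above the highest DN library, and the mean fell 10.1-fold in DN1, 9.41-fold in DN2a and 6.30-fold in DN2b (log2FC -3.67 ± 0.99 in DN1, -3.37 ± 0.97 in DN2a and -2.80 ± 0.94 in DN2b, edgeR adjusted p = 0.0216, 0.0197 and 0.0380). Without IgG D2 these folds of the means were 4.64, 4.30 and 2.88. *Usp18*, the protease that removes ISG15 and restrains the type I receptor, had 42.8, 119, 19.1 and 37.4 CPM in IgG, 7.25 and 6.65 in DN1, then 10.7 and 17.1 in DN2a and 6.44 and 9.63 in DN2b (log2FC -3.31, -2.11 and -2.91, or -2.50, -1.29 and -2.09 without IgG D2). *Herc6*, the mouse ligase that attaches ISG15, had 28.8, 52.7, 12.6 and 22.1 CPM in IgG, 10.1 and 6.76 in DN1, then 10.8 and 10.3 in DN2a and 13.8 and 12.4 in DN2b. This gene was called lower in DN1 and DN2a (log2FC -2.12 and -1.58) and had a log2FC of -1.28 ± 0.56 in DN2b that did not pass (adjusted p = 0.0904).

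Among 13 other effectors, 11 were lower in DN1, 12 in DN2a and 11 in DN2b, against 17.0%, 24.3% and 22.5% of all genes. *Rsad2*, encoding viperin, which makes a chain-terminating nucleotide, had 61.6, 274, 29.9 and 51.8 CPM in IgG, 1.10 and 2.22 in DN1, then 1.82 and 5.03 in DN2a and 2.21 and 5.18 in DN2b. Its log2FC was -6.31 ± 1.27 in DN1, -5.10 ± 1.18 in DN2a and -5.0 ± 1.18 in DN2b, or -5.08, -3.86 and -3.75 without IgG D2. *Cmpk2*, the kinase gene next to it on chromosome 12, had 36.7, 165, 24.005 and 42.4 CPM in IgG, 26.6 and 12.6 in DN1, then 11.2 and 10.99 in DN2a and 9.17 and 11.9 in DN2b. It was lower in DN2a and DN2b (log2FC -2.73 ± 0.84 and -2.82 ± 0.85), and its value in DN1 did not pass (-2.13 ± 0.81, adjusted p = 0.0719). Without IgG D2 the log2FC of *Cmpk2* was -1.06, -1.65 and -1.73, and that in DN1 again did not pass (edgeR adjusted p = 0.0509). *Ifi44* had 4.75, 161, 37.3 and 117 CPM in IgG, 0 and 0.216 in DN1, then 0 and 0 in DN2a and 0.195 and 1.54 in DN2b, with 0 counts over DN2a. There it was at least 1102-fold lower than the IgG mean, 729-fold lower than the mean without IgG D2 and 65.5-fold lower than the lowest IgG library.

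*Ifitm3* and *Bst2* had log2FC values nearer 0 than the median of the 39 genes. *Ifitm3* had 657, 1053, 624 and 775 CPM in IgG, 253 and 125 in DN1, then 352 and 249 in DN2a and 445 and 367 in DN2b. Its groups did not overlap, and its log2FC was -2.35 ± 0.39 in DN1, -1.47 ± 0.37 in DN2a and -1.03 ± 0.37 in DN2b. *Bst2*, the tether of budding virions, had 138, 216, 109.6 and 214 CPM in IgG, 64.1 and 63.4 in DN1, then 105 and 82.2 in DN2a and 111 and 107 in DN2b. This gene was called lower in DN1 and DN2a (log2FC -1.68 ± 0.32 and -0.93 ± 0.30), with an adjusted p of 0.0824 in DN2b. *Samd9l*, a restrictor of translation and of myeloid growth, had 49.5, 77.4, 50.02 and 73.5 CPM in IgG, 16.2 and 5.95 in DN1, then 4.12 and 5.17 in DN2a and 2.93 and 3.80 in DN2b. Its log2FC was -2.80, -3.83 and -4.30.

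The other 6 effectors that passed were lower in each stage. *Parp14*, an ADP-ribosyltransferase gene, had 80.97, 87.1, 86.9 and 162 CPM in IgG, 23.9 and 20.9 in DN1, then 20.2 and 21.2 in DN2a and 23.8 and 31.6 in DN2b, and *Xaf1*, which promotes apoptosis, had 37.9, 57.3, 13.4 and 24.1 CPM in IgG, 2.47 and 2.70 in DN1, then 4.48 and 4.60 in DN2a and 6.83 and 6.80 in DN2b. Their log2FC was -2.46, -2.37 and -1.96 for *Parp14* and -4.0, -3.0 and -2.42 for *Xaf1*. *Rtp4*, a chaperone gene, had 91.04, 135, 38.2 and 53.9 CPM in IgG, 10.2 and 11.8 in DN1, then 5.54 and 8.26 in DN2a and 11.4 and 17.97 in DN2b, and *Trim30a* had 128, 191, 79.3 and 151 CPM in IgG, 30.9 and 51.5 in DN1, then 43.4 and 40.4 in DN2a and 61.3 and 52.5 in DN2b. No DN library reached the lowest IgG library of either gene (log2FC -3.18, -3.66 and -2.58 for *Rtp4*, and -2.0, -1.80 and -1.36 for *Trim30a*). The double-stranded RNA-dependent kinase gene *Eif2ak2* (PKR) had 28.4, 38.5, 39.1 and 61.5 CPM in IgG, 22.001 and 14.4 in DN1, then 12.7 and 10.3 in DN2a and 15.4 and 8.98 in DN2b, and the RNA deaminase gene *Adar* had 81.1, 115, 84.3 and 123 CPM in IgG, 41.1 and 44.7 in DN1, then 35.95 and 29.4 in DN2a and 42.7 and 35.9 in DN2b. Both are expressed at a basal level in most cells, and their log2FC lay between -1.43 (*Adar* in DN2b) and -1.91 (*Eif2ak2* in DN2a). *Ifi35* passed in no stage, with 60.8 ± 29.8 CPM in IgG, 36.9 ± 2.51 in DN1, 44.2 ± 13.7 in DN2a and 51.96 ± 9.95 in DN2b. More than 10% of the exon bases of *Ifi35*, *Herc6*, *Adar* and *Rtp4* overlap another annotated gene.

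The IRG and GBP GTPases, which attack the vacuoles of intracellular parasites and bacteria and are known mainly as targets of interferon gamma, were for the most part not called lower in the DN stages. *Igtp* (Irgm3, chr11:58199556-58207591) had 35.9, 138, 20.2 and 39.1 CPM in IgG, 13.6 and 18.1 in DN1, then 82.4 and 58.9 in DN2a and 112 and 81.1 in DN2b. DN1 lay below all IgG libraries, whereas both DN2 stages fell within the IgG range. Its log2FC over IgG was -2.20 ± 0.77 in DN1, 0.14 ± 0.69 in DN2a and 0.59 ± 0.68 in DN2b (edgeR adjusted p = 0.0565, 0.884 and 0.4998). *Ifi47* (Irg47, chr11:49076587-49096974) had 57.9, 251, 39.3 and 57.3 CPM in IgG, 73.4 and 114 in DN1, then 155 and 109.7 in DN2a and 216 and 184 in DN2b, so that all 6 DN libraries exceeded IgG D1, R1 and R2 and stood below IgG D2. The log2FC of *Ifi47* was -0.44 ± 0.73 in DN1, 0.23 ± 0.71 in DN2a and 0.83 ± 0.70 in DN2b, and none passed.

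The guanylate-binding protein genes *Gbp3* (chr3:142560026-142573209) and *Gbp2* (chr3:142620602-142638008) lie near each other on chromosome 3. *Gbp3* had 11.9, 37.5, 11.6 and 25.5 CPM in IgG, 12.5 and 17.7 in DN1, then 32.1 and 15.95 in DN2a and 49.1 and 33.995 in DN2b, and *Gbp2* had 16.3, 94.8, 15.5 and 23.8 CPM in IgG, 15.4 and 17.3 in DN1, then 19.4 and 11.1 in DN2a and 36.6 and 23.9 in DN2b. In both genes IgG D2 and DN2b library 1 were among the highest. Neither passed against IgG, with a log2FC of -0.79 ± 0.55 in DN1, 0.05 ± 0.53 in DN2a and 0.86 ± 0.51 in DN2b for *Gbp3* and of -1.53, -1.44 and -0.45 for *Gbp2* (-0.39, -0.30 and 0.70 without IgG D2, again with none passing). *Irgm1*, a regulator of the other IRG proteins, had 135, 259.6, 72.1 and 79.2 CPM in IgG, 51.1 and 72.4 in DN1, then 52.6 and 44.98 in DN2a and 55.1 and 64.996 in DN2b. This gene was called lower in DN2a alone (log2FC -1.62 ± 0.58, adjusted p = 0.0451). *Iigp1* was scarce everywhere, with 3.97, 13.4, 1.72 and 4.32 CPM in IgG, 0 and 0.0541 in DN1, then 0.510 and 0.144 in DN2a and 1.56 and 1.94 in DN2b. It was lower in DN1, where 1 count was found and the IgG level was 226 (95% exact interval 40.4 to 8945) times as high (130.1 without IgG D2), and in DN2a (log2FC -4.22 ± 1.12, or -3.31 without IgG D2).

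The calls of these GTPases against IgG changed with IgG D2, the highest IgG library for all 6. D2 is singled out here for its high values in these same genes. The calls made without it follow in part from that choice and describe its weight only. Without D2, *Igtp* and *Ifi47* were higher in DN2a than in IgG (log2FC 1.12 and 1.32, edgeR adjusted p = 0.0221 and 0.00780). *Igtp*, *Ifi47* and *Gbp3* were then higher in DN2b (log2FC 1.58, 1.92 and 1.36, adjusted p = 0.00579, 0.00177 and 0.0231), and *Igtp* was lower in DN1 (-1.22, adjusted p = 0.0284). The log2FC of *Ifi47* in DN1 turned from -0.44 to 0.64, which did not pass. Without IgG D2, the numbers of the 39 genes lower in DN1, DN2a and DN2b were 32, 31 and 28, against 17.8%, 26.0% and 24.3% of all genes, of which 23.6% and 22.4% were higher in DN2a and DN2b. With R1 and R2 alone, *Igtp* and *Ifi47* were higher in DN2a and in DN2b (21.5% and 20.4% of all genes were).

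**Figure D3:**
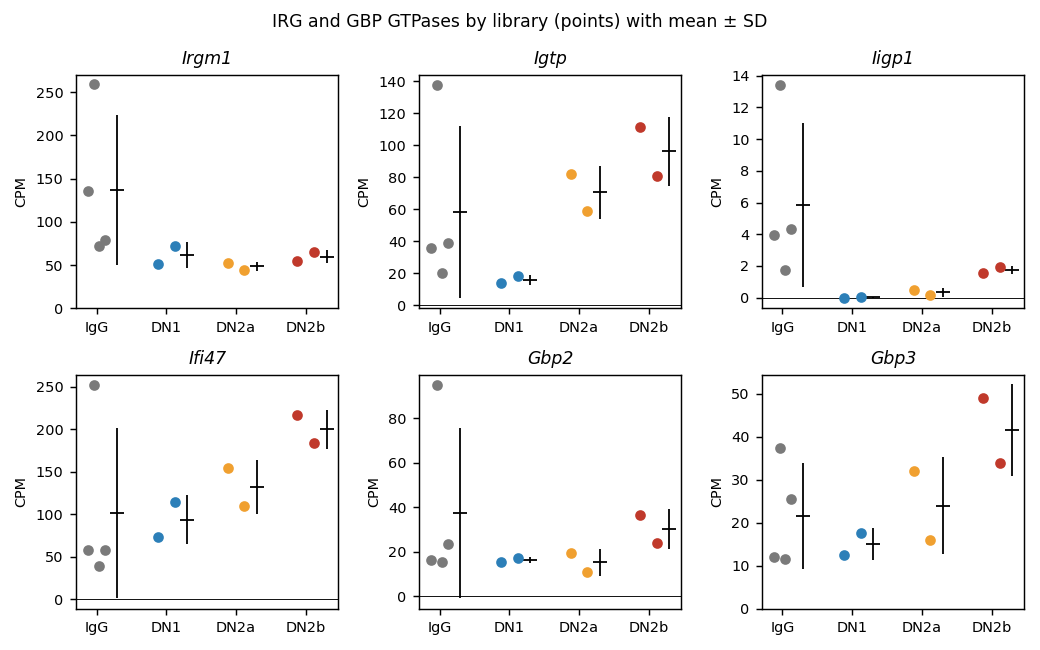
CPM (y axis, linear) of the 6 IRG and GBP GTPase genes in each library (points) with the mean (horizontal tick) ± SD (vertical line) of IgG (n = 4), DN1, DN2a and DN2b (n = 2 each). One IgG point, D2, stands above the other 3 in each panel, and for *Igtp*, *Iigp1*, *Ifi47*, *Gbp2* and *Gbp3* both DN2b points lie above both DN1 points.

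Between the DN stages the differences were smaller than against IgG, and few passed the test. The summed level of the 39 genes was 873 and 804 CPM in DN1, then 1145 and 919.7 in DN2a and 1452 and 1325 in DN2b. No 2 stages overlapped in this sum. Without *Ifitm3*, the most abundant gene, the sums were 619 to 679, 671 to 793 and 959 to 1006 CPM. For DN2b over DN1 the median log2FC was 0.69, against -0.02 over all genes, and 30 of 39 genes were above 0. Both DN2b libraries exceeded both DN1 libraries for 18 genes (13.2% of all genes tested did so), and both lay below for 5 (32.4%). The 30 genes include *Ifit1*, *Ifit3* and *Mx1*, and the 18 include *Ifit1* and *Ifit3*. These genes had at most 4 counts over either stage, so their direction is uncertain. Scaling to library size only moved the median of all genes to -0.21 in DN2b over DN1 and to -0.22 in DN2a over DN1.

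Only *Oas2* passed the test, and it was lower in DN2b than in DN1 (log2FC -3.18 ± 0.63, edgeR adjusted p = 0.0386). Thus 1 of 39 genes was lower and 0 were higher, against 0.892% and 1.01% of all genes tested. At an unadjusted p under 0.05, 9 genes were higher (*Bst2*, *Dhx58*, *Gbp3*, *Ifitm3*, *Igtp*, *Iigp1*, *Oasl2*, *Xaf1* and *Zbp1*) and 2 lower (*Oas2* and *Samd9l*), against 5.43% and 8.43% of all genes. DESeq2 called 6 higher (*Dhx58*, *Zbp1*, *Oasl2*, *Igtp*, *Iigp1* and *Ifitm3*) and *Oas2* lower, against 2.77% and 3.95% of all genes. Without IgG D2, edgeR called 4 higher (*Dhx58*, *Zbp1*, *Igtp* and *Iigp1*), against 1.19%. IgG enters neither side of DN2b over DN1, so leaving out D2 acted through the spread and scaling shared by the fit. D2 was singled out for its high values, so the results without it add no support for a rise. The mean CPM of *Igtp* in DN2b was 6.08 times that in DN1 (log2FC 2.79 ± 0.85), with an adjusted p of 0.164 in the fit of all 10 libraries, 0.0137 without IgG D2 and 0.0279 in a fit of the 6 DN libraries that blocked on replicate number. *Zbp1*, with a ratio of 6.29 by mean CPM, had an adjusted p of 0.0714 (0.0420 without IgG D2). *Iigp1* rested on 1 count in DN1 and 48 in DN2b, a ratio per gene read of 71.2 (95% exact interval 12.2 to 2869.7). *Oas2* did not pass in 7 of the 10 fits that left out 1 library (it passed without DN2a library 2, IgG D2 or IgG R1). It did not pass in the 6 DN libraries, with or without the block, and over 17 other settings its adjusted p reached 0.358.

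Between DN2a and DN1 edgeR called 0 of the 39 genes (0.196% of all genes tested were higher and 0.205% lower). At an unadjusted p under 0.05, *Igtp* and *Iigp1* were higher and *Oas2* and *Samd9l* lower, against 3.38% and 7.49% of all genes. DESeq2 called *Oas2* lower and 0 of the 39 higher, against 2.86% and 1.02%. *Igtp* differed by a log2FC of 2.34 ± 0.84 (adjusted p = 0.335), and its DN2a libraries, at 82.4 and 58.9 CPM, both exceeded those of DN1. DN2b over DN2a gave 0 calls among the 39 genes and 0.00% among all genes by edgeR, and 0 of the 39 by DESeq2, which called 0.131% of all genes higher and 0.106% lower. There *Oasl2* and *Zbp1* were higher at an unadjusted p under 0.05 (1.70% of all genes were higher and 1.04% lower), with a log2FC of 1.54 ± 0.48 and 1.87 ± 0.63. The medians of the 39 genes were 0.20 for DN2a over DN1 and 0.41 for DN2b over DN2a, against -0.03 and -0.0040 over all genes.

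The 4 IgG libraries differed more from each other in these genes than in the median gene. IgG D2 was the highest of the 4 for 33 of 39 genes (84.6%, against 23.9% of all genes tested), and R1 the lowest for 33 (14.7% of all genes). R2 was the highest for 5 genes and D1 for 1, against 43.4% and 19.3% of all genes. Summed over the 39 genes, D1 had 3022 CPM, D2 6123, R1 2039 and R2 3395. The highest library exceeded the lowest by a median of 3.54-fold, from 1.51-fold to 33.9-fold (*Ifi44*), compared with a median of 2.04-fold over the 11884 tested genes with counts in all 4. IgG D2 stood at a median of 2.38 times the median of the other 3 libraries, against 0.880 times over all genes, and exceeded it more than 2-fold for 24 genes.

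The highest library stood farthest above the next in *Mx1*, with 116 CPM in D2 against 18.9 in R2, followed by *Rsad2* (274 against 61.6), *Ifi47* (251 against 57.9) and *Ifit2* (329 against 75.7). Leaving out D2 lowered the IgG mean by more than 1.5 times for 13 of the 39 genes, most of all for *Mx1* (3.47 times). The spread was narrow in *Ifitm3*, where the highest library was 1.69-fold above the lowest, and in *Adar* (1.51-fold). *Ifi44* had the largest ratio of highest to lowest, as D1 held 4.75 CPM while D2 and R2 held 161 and 117. *Parp14* and *Eif2ak2* peaked instead in R2, at 162 and 61.5 CPM. Between the 2 libraries of a DN stage the median ratio was 1.27 in DN1, 1.40 in DN2a and 1.33 in DN2b.

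**Figure D4:**
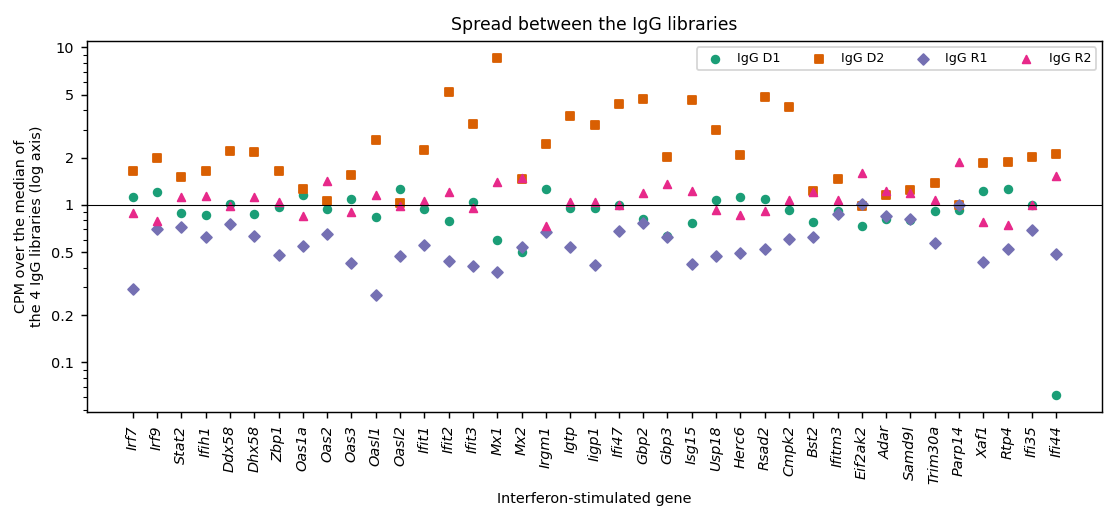
CPM of each gene in each IgG library divided by the median of the 4 (y axis, logarithmic; genes on the x axis). IgG D2 (squares) is the highest for 33 of 39 genes, and IgG R1 (diamonds) is the lowest for 33.

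By letter, the R libraries had a median log2FC of -1.26 over the D libraries for the 39 genes, against -0.08 over all genes (0.18 with scaling to library size only), but 0 of the 39 and 0.00% of all genes passed in edgeR. At an unadjusted p under 0.05, 19 of the 39 were lower in the R libraries and 0 higher, against 4.11% and 5.38% of all genes. DESeq2 called 5 of the 39 lower (*Oas3*, *Irgm1*, *Herc6*, *Xaf1* and *Rtp4*), against 0.417% lower and 0.679% higher of all genes. Other transcripts also differed between the IgG libraries. D2 had the highest summed neutrophil markers (58147 CPM, against 21157 in D1, 37271 in R1 and 21031 in R2) and the lowest macrophage markers (1450.3, against 5784, 3738 and 1749). The 5 conventional dendritic cell genes summed to 1234 CPM in D2 and to 65.4, 313 and 138 in D1, R1 and R2, mostly through *Cd74* (753 CPM in D2) and *H2-Aa* (438), both of which interferon gamma is known to induce. The 5 plasmacytoid dendritic cell genes, of cells known for making type I interferon, summed to 2.53 to 8.43 CPM in IgG, with *Siglech* at 0 in D1 and D2 and *Klk1* at 0 in all 4. The part of these cells in the spread was not tested.

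**Figure D5:**
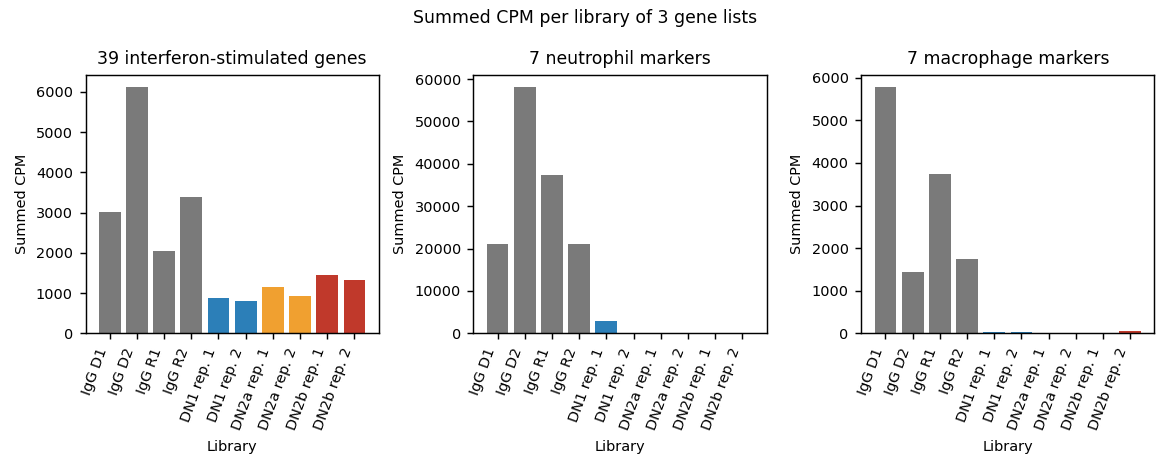
Summed CPM per library (bars, linear axes from 0) of the 39 interferon-stimulated genes, 7 neutrophil markers and 7 macrophage markers. The interferon-stimulated genes sum to 2039 CPM or more in each IgG library and to 1452 or less in each DN library, with IgG D2 the highest, and the macrophage markers are highest in IgG D1.

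Genes upstream of the 39 were examined as a list of 31. Counted messages of the interferon genes listed were close to absent. Other *Ifna* genes were not examined, and reads that matched several places were not counted. *Ifna1*, *Ifna2*, *Ifna4*, *Ifnl2* and *Ifnl3* had 0 counts in all 10 libraries, and a limit of 3 counts allows up to 0.0848 to 0.243 CPM, depending on the library. *Ifnb1*, encoding interferon beta, had 14 counts in IgG D2 (0.554 CPM) and 0 in the other 9 libraries, and *Ifng* had 2 counts, also in IgG D2, below the detection floor. Interferon mRNA is known to be short-lived, and these levels describe the day of harvest.

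All 4 receptor chains were lower in every DN stage than in IgG, against 17.0%, 24.3% and 22.5% of all genes in DN1, DN2a and DN2b. The type I receptor genes *Ifnar1* and *Ifnar2* had 175 ± 75.3 and 174 ± 14.5 CPM in IgG and 44.4 ± 7.63 and 90.9 ± 29.05 in DN1 (log2FC -2.21 ± 0.36 and -1.20 ± 0.29). Their log2FC was -2.67 and -1.58 in DN2a, and -2.32 and -1.70 in DN2b. *Ifngr2*, the signaling chain of the interferon gamma receptor, had 114, 81.3, 142 and 116 CPM in IgG, 6.63 and 6.87 in DN1, then 1.38 and 3.16 in DN2a and 1.82 and 7.45 in DN2b. Its log2FC was -4.33 ± 0.60 in DN1, -5.73 ± 0.66 in DN2a and -4.71 ± 0.62 in DN2b, whereas the ligand-binding chain *Ifngr1* had 82.9 ± 29.99, 70.7 ± 21.7 and 127 ± 66.3 CPM against 324 ± 109.7 in IgG. The kinase genes *Jak1* and *Jak2* and the interferon gamma-responsive factor *Irf1* passed in none of these comparisons, with *Irf1* at 70.3 ± 20.3 CPM in IgG and 88.1 ± 10.9, 74.6 ± 4.39 and 86.99 ± 1.97 in the DN stages.

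Over the list, 24 of 31 genes were tested, and 15 were lower and 0 higher in DN1 (1 higher at an unadjusted p under 0.05), 16 lower and 1 higher (*Irf3*) in DN2a, and 16 lower and 1 higher (*Socs1*) in DN2b. The shares of all genes tested were 17.0%, 24.3% and 22.5% lower and 14.3%, 21.2% and 19.9% higher. The endosomal receptor genes *Tlr3* and *Tlr9* passed the filter only through IgG and so had to differ. Without them, 13, 14 and 14 of 22 genes were lower, against 14.2%, 20.4% and 19.2% of the genes that also passed through DN libraries. The endosomal receptor gene *Tlr7* and the myeloid factors *Irf5* and *Irf8* were lower in all stages. *Irf8* went from 138 ± 36.1 CPM in IgG to 5.83 ± 1.51 in DN1. The cytosolic adaptor genes *Mavs* and *Tmem173* (STING) and the DNA sensor gene *Mb21d1* (cGAS) passed in none. *Socs1*, an inhibitor of JAK kinases known to be induced by cytokines that include interferon gamma and IL-7, had 0.775, 4.31, 5.15 and 4.05 CPM in IgG, 1.10 and 0.974 in DN1, then 8.71 and 11.6 in DN2a and 26.4 and 48.6 in DN2b. It was lower in DN1 than in IgG (log2FC -2.03 ± 0.67, edgeR adjusted p = 0.0445), higher in DN2b than in IgG (3.32 ± 0.56, adjusted p = 0.00200) and higher in DN2b than in DN1 (5.35 ± 0.81, adjusted p = 0.0156). *Socs3*, in contrast, was lower than in IgG in all 3 stages (log2FC -2.52, -3.48 and -1.77).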

How the data were processed

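RNA-seq of 10 mouse libraries was used, as raw read counts per gene symbol that the authors deposited without normalization. Per the study's methods and the submitters' processing notes, reads failing Illumina's threshold were removed, the first 36 bases of the first read were aligned to mm10 with TopHat 2.12, and reads were counted with htseq-count 0.6.1p1 in intersection-strict mode. The notes also name Cufflinks 2.2.1. The kit was stranded, but annotation and strand setting are not given in the sources used here, so overlapping genes are uncertain. The 5 summary lines of each file, 20.5% to 41.0% of its reads, were dropped. Reads aligned to several places made up 16.4% to 30.1%.

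Groups came from the sample labels, and each library was one sample. Replicates came from independent LSK isolates, and per the study's methods the DN stages were taken from each isolate. The dates in the labels pair DN libraries by year (DN2a and DN2b share dates). Departures of same-numbered libraries from the mean of their stage had r = 0.0583 across genes for DN1 and DN2a, 0.211 for DN1 and DN2b, and 0.465 for DN2a and DN2b. Genes with at least 1 CPM in 2 or more libraries (12221) entered 1 edgeR fit of the 4 groups and 10 libraries (version 4.0.16 in R 4.3.3, TMM scaling, quasi-likelihood F test, prior count 0.125, common dispersion 0.189). P-values were adjusted by Benjamini-Hochberg across these genes, with a threshold of 0.05. SEs were obtained from the log2FC and F (log2FC over the root of F). DN1, DN2a and DN2b were each compared with IgG and with each other, and the R with the D libraries of IgG. The 39 genes, the 31 pathway genes and the marker lists were chosen with earlier results of these data known, so no p was adjusted over a list. By rule the text names all 39 genes and the pathway genes that passed or were undetected. *Ifnb1*, *Ifng*, *Jak1*, *Jak2*, *Irf1*, *Mavs*, *Tmem173* and *Mb21d1* were added after their values were seen. The values of 1 pathway gene are not reported here. Ratios with 1 to 3 counts in a group carry exact 95% binomial intervals.

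Alternatives were DESeq2 1.42.0, scaling to library size only, no filter, filterByExpr, only the groups compared, IgG D or R libraries alone, each library left out, and a fit of the DN libraries with a replicate block. The same fit lacking the block was chosen after seeing the data. On simulated counts for 12221 genes of which 200 had a log2FC of 2, 93 were recovered with 4 false calls in DN1 over IgG and 54 were recovered with 2 false calls in DN2b over DN1. Coordinates are those of GENCODE vM21 (GRCm38), matched for 39 of 39 symbols, and promoter sequences are from RefSeq (GRCm38.p6). Summaries and figures were made in Python 3.11.15 (matplotlib 3.10.9, scipy 1.17.1, pandas 2.3.3 and numpy 2.4.6).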

Additional observations from a re-analysis of the deposited data

Results flagged for a closer look

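In 8 of the 39 interferon-stimulated genes, 1 IgG library stood so far from the other 3 that its gap to the nearest, as a share of the range over the 4 libraries, exceeded Dixon's 95% critical value for 4 samples. That library was IgG D2, above the others, in 7 genes. The share was 0.912 in *Ifi47*, 0.895 in *Gbp2*, 0.875 in *Mx1*, 0.870 in *Rsad2*, 0.870 in *Cmpk2*, 0.840 in *Ifit2* and 0.839 in *Igtp*. The eighth was *Parp14*, where IgG R2 was the highest with a share of 0.925. Chance gives such a gap in about 1 in 20 groups, and it was found in 20.5% of the 39 genes and in 7.09% of all genes tested. The cause was not tested.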

How the results depend on the processing

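With single libraries left out, the number of the 39 genes lower than in IgG ranged from 21 to 33 in DN1, 17 to 34 in DN2a and 14 to 31 in DN2b, and the number higher was 0 in DN1, 0 to 2 in DN2a and 0 to 3 in DN2b. Over all genes the share lower ranged from 8.63% to 17.8%, 11.2% to 26.0% and 11.3% to 24.3% in the same fits, and the share higher from 6.84% to 16.5%, 10.9% to 23.6% and 10.7% to 22.4%. In DN2b over DN1, 0 to 4 were higher (4 without IgG D2, *Dhx58*, *Zbp1*, *Igtp* and *Iigp1*) and 0 to 1 lower (*Samd9l* in place of *Oas2* without DN1 library 2), against 0.182% to 1.19% and 0.115% to 2.15% of all genes. With IgG R1 and R2 alone, 2 genes (*Igtp* and *Ifi47*) were higher in DN2a and 2 in DN2b (21.5% and 20.4% of all genes). In DN2b over DN1, 6 genes were higher with DESeq2, 1 without the filter (*Zbp1*) and 1 (*Igtp*) with only the groups compared, against 2.77%, 0.721% and 0.519% of all genes. DESeq2 called 1 gene lower in DN2a over DN1 (2.86% of all genes) and 5 lower in IgG R over D (0.417%).

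With the replicate block, 1 gene (*Igtp*) was higher and 0 lower in DN2b over DN1, and the 6 DN libraries without a block gave the same counts, 1 and 0. Over all genes 1.29% were higher and 0.769% lower with the block, and 1.08% and 0.574% without it. The block changed no other call between DN stages in the 39 genes, and over all genes DESeq2 called 822 in DN2b over DN1 and 474 in DN2a over DN1, against 233 and 49 with edgeR. The call of *Oas2* was also lost with only the groups compared (0 lower, against 0.197% of all genes).

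Fold changes that turned sign did not pass in the fit of all libraries. With R1 and R2 alone the log2FC was 0.84 for *Ifi47* in DN1, 0.070 and 0.31 for *Ifi35* in DN2a and DN2b, and 0.70 for *Gbp2* in DN2b. With D1 and D2 alone it was -0.31 for *Gbp3*, -0.49 for *Ifi47* and -0.56 for *Igtp* in DN2a, and -0.093 for *Igtp* in DN2b. With single libraries left out it ranged from -0.87 to 0.64 for *Ifi47* in DN1. In DN2a the range was -0.49 to 0.56 for *Gbp3*, -0.054 to 1.32 for *Ifi47* and -0.16 to 1.12 for *Igtp*. In DN2b it was -0.83 to 0.70 for *Gbp2* and -0.58 to 0.13 for *Ifi35*. The cause was not tested. With 2 libraries per DN stage and wide IgG spread, differences between DN stages that missed the threshold are not shown to be absent.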
